A study of Mus musculus with 7 samples.

Results

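The genes of the constitutive proteasome were followed in β-cells sorted from mice on chow diet (CD) or on a high-fat diet (HFD). They were taken as every gene whose symbol starts with Psma, Psmb, Psmc, Psmd, Psme or Psmg and a number, except the interferon-inducible Psmb8 and Psmb9. Of 47 genes with such a symbol, 45 of the 24035 genes in the count table had at least 70 counts summed over the 7 libraries. Psmb11, a thymus form, and Psma8, a testis form, had 0 counts and were left out, and the weakest gene kept was Psme2b with 113 counts, followed by Psmg4 with 501 and Psmc3ip with 620. Of the 45 genes, 43 encode subunits, assembly chaperones or activators of the proteasome. The other 2 share only the symbol pattern. Psmc3ip encodes a recombination factor, and Psme2b is a near-copy of Psme2 that may share reads with it.

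The proteasome degrades proteins that have been tagged with ubiquitin. Its 20S core is a barrel of outer rings of α subunits (Psma genes) around inner rings of β subunits (Psmb genes), which hold the cutting sites, and the 19S cap binds the ubiquitin chain, removes it and unfolds the protein with a ring of ATPases (Psmc genes) before it enters the barrel. In the β-cell the proteasome takes up misfolded proinsulin that is sent back from the endoplasmic reticulum, besides its work in all cells on cell-cycle and signaling proteins.

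All mice were C57BL/6N (C57BL/6NCrl in the methods) with no gene altered, and at 12 weeks of age they received chow diet (CD, 4 mice) or a 60% high-fat diet (HFD, 3 mice) for 2 days. Islet β-cells were sorted with the dyes ZIGIR and Ex4-Cy5, the latter a labelled ligand of the GLP-1 receptor, and polyadenylated RNA was sequenced with a stranded kit, with each library from a separate mouse. The study names male mice where it describes the 2-day feeding and both sexes in its methods, and the labels do not give the sex behind each library. The comparison asks which transcripts differ early after the start of high-fat feeding. Libraries held 11145642 to 22557957 counts on CD and 10559175 to 14391602 on HFD.

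Promoters are shown for 5 genes. Psmc5 had the lowest p-value by edgeR's quasi-likelihood test, and Psmc2 and Psmd9 also had an unadjusted p under 0.05. Psmb5 and Psmb6 are catalytic subunits. Psmg2, also at an unadjusted p under 0.05, and the catalytic subunit Psmb7 had no promoter in the set used. The sequences are from RefSeq (GRCm38.p6) and run 5′ to 3′ from 250 bases before to 50 bases after a RefSeq start site, from which positions are counted. Capitals mark a match to 1 of 3 motifs searched on both strands. These were TGACNNNGC, the core of the antioxidant response element that the factors Nfe2l1 and Nfe2l2 bind, the CCAAT box CCAAT, and the motif of nuclear respiratory factor 1, searched as TGCGCA, any base and GCGC. In the sequences shown no match of 1 motif overlaps that of another, and a match is a description of the letters and not a site of binding.

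Psmc5 lies on the plus strand at chr11:106255935-106256234 and has none of the 3 motifs.
Psmc5: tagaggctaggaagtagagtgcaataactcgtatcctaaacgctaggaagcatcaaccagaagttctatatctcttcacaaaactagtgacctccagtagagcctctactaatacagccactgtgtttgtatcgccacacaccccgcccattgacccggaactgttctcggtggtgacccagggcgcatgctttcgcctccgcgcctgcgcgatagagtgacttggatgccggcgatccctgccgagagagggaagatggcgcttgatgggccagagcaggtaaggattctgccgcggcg

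Psmc2 lies on the plus strand at chr5:21785025-21785324 (the first of its 2 promoters) and has a CCAAT box 28 to 24 bases before the start.
Psmc2: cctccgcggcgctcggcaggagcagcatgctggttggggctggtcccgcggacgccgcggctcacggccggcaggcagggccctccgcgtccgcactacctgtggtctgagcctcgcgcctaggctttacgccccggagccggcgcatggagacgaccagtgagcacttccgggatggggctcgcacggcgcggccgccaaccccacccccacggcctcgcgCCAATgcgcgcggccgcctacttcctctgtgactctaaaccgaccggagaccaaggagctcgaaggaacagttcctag

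Psmd9 has its RefSeq promoter on the plus strand at chr5:123227940-123228239, where the start site is 58777 bases downstream of the first base of the GENCODE gene given below, and it has the antioxidant core 31 to 23 bases before the start.
Psmd9: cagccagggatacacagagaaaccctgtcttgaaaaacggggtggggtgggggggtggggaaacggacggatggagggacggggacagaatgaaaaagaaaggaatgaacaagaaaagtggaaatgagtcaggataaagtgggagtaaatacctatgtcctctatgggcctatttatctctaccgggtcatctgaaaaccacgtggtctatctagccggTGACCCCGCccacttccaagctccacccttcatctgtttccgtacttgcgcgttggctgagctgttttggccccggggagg

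Psmb5 lies on the minus strand at chr14:54617946-54618245 and has the antioxidant core 47 to 39 bases before the start.
Psmb5: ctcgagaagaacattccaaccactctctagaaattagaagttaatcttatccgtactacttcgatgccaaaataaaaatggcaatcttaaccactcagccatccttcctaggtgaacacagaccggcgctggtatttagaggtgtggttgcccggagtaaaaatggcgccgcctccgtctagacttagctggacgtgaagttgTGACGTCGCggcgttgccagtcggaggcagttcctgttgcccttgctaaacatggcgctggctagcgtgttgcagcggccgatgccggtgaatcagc

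Psmb6 lies on the plus strand at chr11:70525107-70525406 and has the antioxidant core 9 bases to 1 base before the start.
Psmb6: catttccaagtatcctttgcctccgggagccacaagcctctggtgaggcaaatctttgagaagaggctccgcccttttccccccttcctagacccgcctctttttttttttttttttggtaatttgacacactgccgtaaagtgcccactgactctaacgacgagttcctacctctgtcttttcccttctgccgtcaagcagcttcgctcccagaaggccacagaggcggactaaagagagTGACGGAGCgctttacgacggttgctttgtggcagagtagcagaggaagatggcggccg

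A promoter was given for 38 of the 45 genes, and none for Psmb1, Psmb2, Psmb7, Psmc3, Psmd3, Psmd7 and Psmg2. The antioxidant core was found in 6 of them (15.8%), namely Psmb5, Psmb6, Psmc6, Psmd9, Psmd12 and Psme4, and in 13.99% of all 27025 genes with a promoter in the table. The CCAAT box was found in 13 (34.2%) against 41.1% of all genes, and the motif of nuclear respiratory factor 1 in 4 (10.5%), namely Psma2, Psma3, Psma4 and Psmc4, against 2.77% of all genes. The other 17 had none of the 3.

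The labelled cell type was checked first. The insulin genes Ins1 and Ins2 held 27.7% to 29.0% of the counts of a library on CD and 29.9% to 30.9% on HFD, and 8 β-cell markers, present in every library, summed to 282060 to 295355 CPM (counts scaled by library size with TMM, the trimmed mean of M-values) on CD and 300486 to 311753 on HFD. Both measures thus separated the diets, but they are not independent. Ins1 and Ins2 are among the 8 markers and make up most of their sum, so it does not show the other markers to differ. Summed levels of 5 α-cell markers were 81.3 to 306 CPM on CD and 73.9 to 154 on HFD, those of 2 δ-cell markers 357 to 1064 and 360 to 563, those of the PP-cell marker 83.0 to 273 and 94.0 to 123, those of 3 ductal markers 182 to 221 and 166 to 254, those of 5 acinar markers 50.2 to 2244.5 and 0.732 to 1773.5, and those of 4 macrophage markers 45.9 to 68.5 and 29.3 to 48.2, while 3 endothelial markers summed to at most 1.33 CPM and 3 T cell markers to at most 2.50. Their part in the results below was not tested. HFD replicate 3 stood apart. It had a count for 9627 genes against 12484 to 14600 in the other libraries, and 22.7% of the 12354 genes tested were at 0 in it. Of the proteasome genes, 2 of 45 were at 0 in it (Psmg1 and Psmg3). Values are therefore given with and without this library where it decides them.

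On CD, the proteasome genes covered a wide range of levels, with the assembly factors below most structural subunits. Levels between genes are compared in TPM, which were computed here from the counts and the length of the longest principal transcript of each gene. The symbol rule took 31 structural subunits of the 26S particle and left out those with other symbols, such as Shfm1. The 31 had a median of 74.6 TPM, and 23 of them lay within 2-fold of it. Their range was 15.2-fold, from Psma3 at 11.1 ± 3.08 TPM to Psmb6 at 169 ± 6.94 TPM (SD, n = 4). Psmb6, Psmb4 at 163 ± 7.22 TPM and Psmb2 at 162 ± 39.4 TPM were the highest and did not differ beyond their spread. The transcript used for Psma3 and for Psma2 is a long annotated form, so that their level per length is too low if the cells use shorter ones. Subunits that the complex holds in equal number had unequal RNA levels.

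The assembly factors lay lower. The 3 chaperones of the 19S base had 7.96 to 15.5 TPM on CD and the 4 chaperones of the 20S core 13.4 to 25.7 TPM. Of the structural subunits, only Psma3, Psmd11 at 25.1 ± 3.72 TPM and Psma5 at 25.5 ± 4.70 TPM lay below the highest of these, Psmg2 at 25.7 ± 3.21 TPM, and the latter pair differed from Psmg2 by less than the spread. The 4 activators had 32.3 to 61.5 TPM and the inducible β subunit Psmb10 had 14.2 ± 4.54 TPM. The lowest of the 45 genes were Psmc3ip at 6.91 ± 10.4 TPM and Psme2b at 2.91 ± 2.02 TPM.

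**Figure D1:**
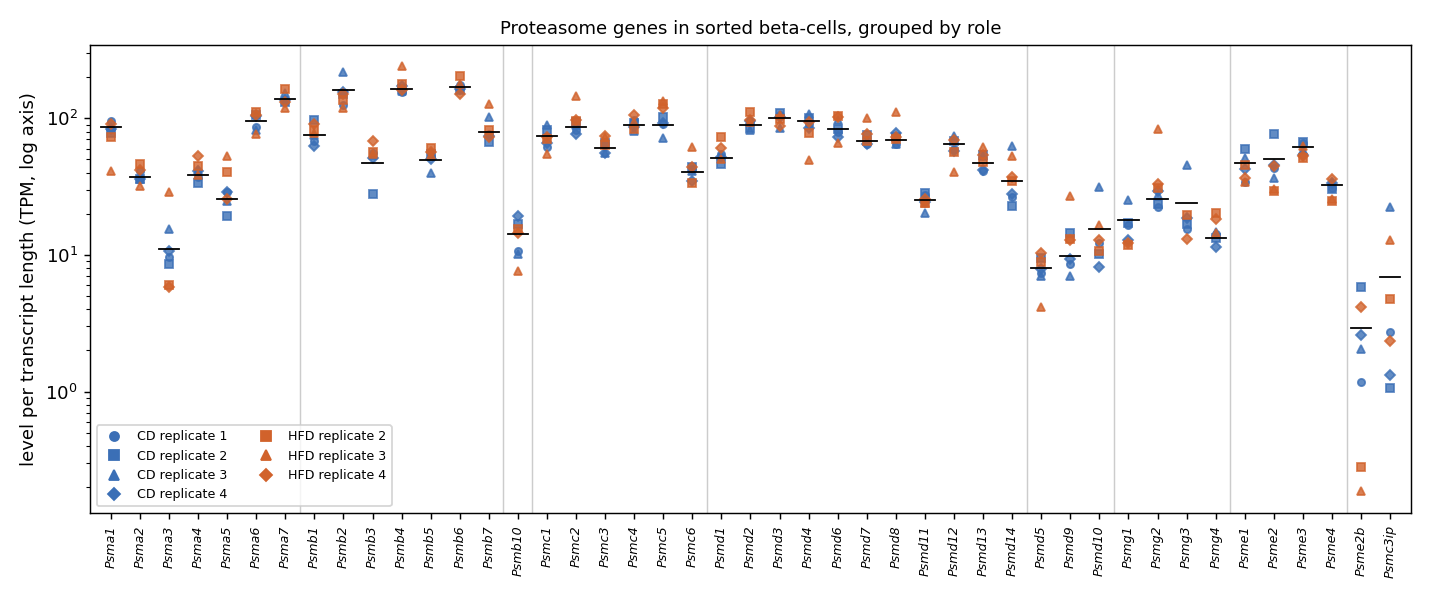
Level per transcript length (TPM, log axis) of the 45 genes in each of the 7 libraries, grouped by role from left to right as α ring, β ring, Psmb10, ATPases, other 19S subunits, 19S chaperones, 20S chaperones, activators and the 2 genes that are no subunits. Black lines are CD means, and values of 0 (Psmg1 and Psmg3 in HFD replicate 3) cannot be drawn. CD means of all structural subunits but Psma3 lie between 25.1 and 169 TPM, and those of the chaperones between 7.96 and 25.7 TPM.

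Among the catalytic subunits, the constitutive forms prevailed over their inducible partners on both diets. Psmb5 carries the chymotrypsin-like site, Psmb6 the caspase-like site and Psmb7 the trypsin-like site, and Psmb8, Psmb9 and Psmb10 replace them in the immunoproteasome. Of the summed TPM of Psmb5 and Psmb8, the inducible Psmb8 made up 17.5% ± 3.32 on CD (SD, n = 4) and 14.9% ± 5.76 on HFD (SD, n = 3). Psmb9 made up 3.22% ± 0.368 of the sum with Psmb6 on CD and 4.31% ± 1.01 on HFD. Psmb10 made up 15.5% ± 5.8 of the sum with Psmb7 on CD and 12.7% ± 6.11 on HFD. In all 3 pairs the libraries of both diets overlapped. The shares rest on the transcript length taken for each gene, such as 1628 bases for Psmb8 and 899 for Psmb5. An inducible form would have a higher share if the cells use a shorter transcript of it.

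HFD was then compared with CD over all genes. Each comparison is given as the log2 fold change of HFD over CD from edgeR's quasi-likelihood fit. All 45 genes passed the filter on low counts. None of the 45 had an adjusted p under 0.05 by edgeR's quasi-likelihood test with Benjamini-Hochberg adjustment over 12354 genes, and the share called over all genes was 0%, while 353 genes were higher and 360 lower at an unadjusted p under 0.05. Adjusted p-values of the 45 genes ran from 0.731 to 1. The likelihood ratio test of edgeR and limma-voom called 0 of the 45 as well, and DESeq2 called 1 of them, Psmc5 (adjusted p = 0.0292), against 1.11% of all genes it tested. The median standard error was 0.20 for the 45 genes and 0.35 over all genes.

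At an unadjusted p under 0.05, 4 of the 45 genes were higher on HFD (Psmc5, Psmg2, Psmc2 and Psmd9) beside 2.86% of all genes, and 0 were lower beside 2.91% of all genes. Without HFD replicate 3, 2 were higher (beside 2.99%) and 1 lower (beside 3.82%), without CD replicate 1 these were 1 (1.81%) and 0 (2.09%), and without CD replicate 4 they were 2 (1.99%) and 0 (2.08%). Upper-quartile scaling left the counts of proteasome genes at 4 and 0, and moved those of all genes to 420 higher and 283 lower. A log2 fold change above 0 was found for 29 of the 45 genes, beside 42.1% of all genes, with a median of 0.15 beside −0.08 for all genes. Without HFD replicate 3, these were 28 of 45 beside 45.2%, and 0.12 beside −0.04. Without HFD replicate 2 in its place, 24 of 45 lay above 0, beside 4877 of 12532 genes, and the median was 0.09 beside −0.14. With all libraries and a stricter filter on low counts, 29 of 41 lay above 0, beside 4456 of 9147 genes. The median was then 0.18 beside −0.009.

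Libraries of the diets did not overlap for 4 genes that were higher on HFD, namely Psmc2, Psmc3, Psmc5 and Psmg2, beside 4.05% of all genes, and for 1 that was lower, Psmg1, beside 5.37%. Without HFD replicate 3 these counts were 13 of 45 higher beside 9.74% of all genes and 2 of 45 lower (Psma3 and Psmg1) beside 8.22%. The 13 were Psma2, Psma4, Psma6, Psmb3, Psmb5, Psmc2, Psmc3, Psmc5, Psmd1, Psmd2, Psmd6, Psmg2 and Psmg4. Without HFD replicate 4 there were 6 lower genes, Psma1, Psmd4, Psme2, Psme4, Psme2b and Psmg1, beside 13.3% of all genes. CD replicate 3 was the highest of the 7 libraries for 9 of the 45 genes (19.7% of all genes). HFD replicate 3 was the highest for 11 of the 45 genes (23.5% of all genes) and the lowest for 17 (43.1% of all genes), and the interquartile range of its log2 ratios to the CD mean was 0.9998 over the 45 genes, against 1.80 over all genes.

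**Figure D2:**
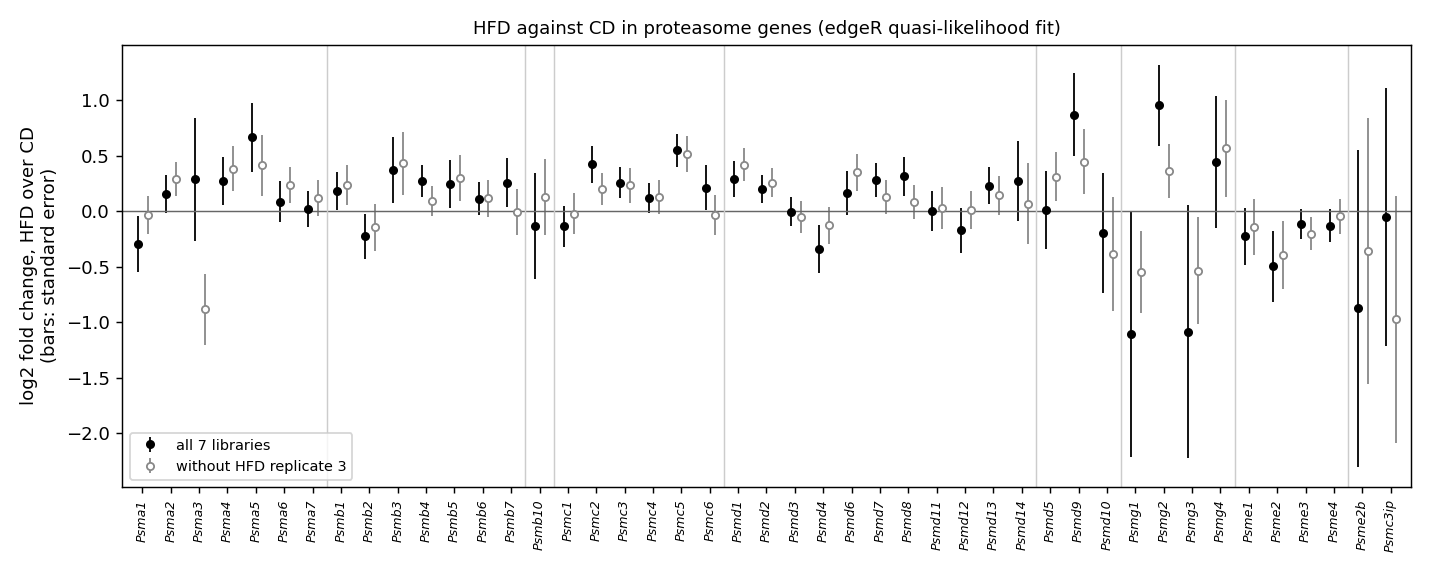
Log2 fold change of HFD over CD with its standard error for each of the 45 genes from edgeR's quasi-likelihood fit, with all 7 libraries (filled) and without HFD replicate 3 (open), grouped by role as above. The 4 activators lie below 0 and 25 of the 31 structural subunits above it, with Psma3 on opposite sides of 0 in the 2 fits.

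By role, the fold changes were as follows. Of the 31 structural subunits, 25 had a log2 fold change above 0 and their median was 0.21 (23 of 31 and 0.12 without HFD replicate 3). Of the 14 other genes, 4 lay above 0, namely Psmd5, Psmd9, Psmg2 and Psmg4. Psmd3 turned above 0 with RLE and with upper-quartile scaling, and all 4 activators stayed below 0 with both. These are counts beside each other, and the difference between the roles was not tested.

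**Figure D3:**
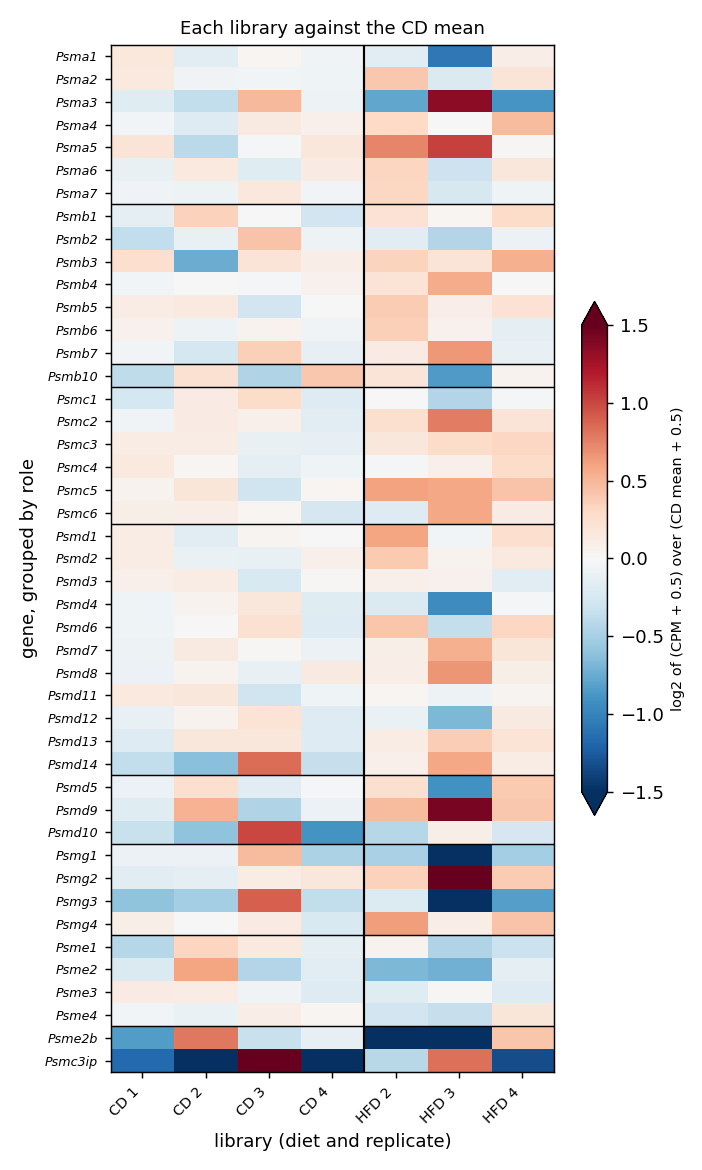
Log2 ratio of each library to the CD mean (CPM with 0.5 added) for the 45 genes in role order, with horizontal lines between roles and a vertical line between diets. Red is above and blue below the CD mean, and the scale ends at 1.5 in both directions. HFD replicate 3 has the deepest colors of both signs, and Psmc5 is red in all 3 HFD libraries.

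Summed over the 31 structural subunits, the 7 libraries separated by diet. The sums were 2039, 2066, 2127 and 1969 CPM in CD replicates 1 to 4 and 2350, 2259 and 2225 CPM in HFD replicates 2 to 4. Every HFD library lay above every CD library, and this held with total-count, RLE and upper-quartile scaling as well. Means were 2050 ± 65.7 CPM on CD (SD, n = 4) and 2278 ± 64.5 CPM on HFD (SD, n = 3), which is a ratio of 1.11. Over the 4 scalings, or leaving out any 1 library, the log2 ratio ran from 0.13 to 0.19, with 0.16 without HFD replicate 3. Insulin counts, and the β-cell marker sum that is mostly insulin, separated the diets in the same direction. Their part in the sums of structural subunits was not tested. These sums were looked at after the gene values were known, so no test is given. In RNA from sorted cells, fewer cells of a type and less RNA per cell cannot be told apart.

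The 6 ATPases, which are part of the sum over structural subunits and so no separate result, showed the same order. Their sums were 421, 452, 415 and 384 CPM on CD and 470, 541 and 490 CPM on HFD, with a ratio of 1.197 between the means. The groups did not overlap with TMM scaling, but they overlapped with scaling by total counts, where the highest CD value was 454.976 and the lowest HFD value 454.487 CPM. The 4 activators had sums of 273, 303, 281 and 264 CPM on CD and 237, 235 and 275 CPM on HFD, which overlap, with a ratio of 0.889.

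**Figure D4:**
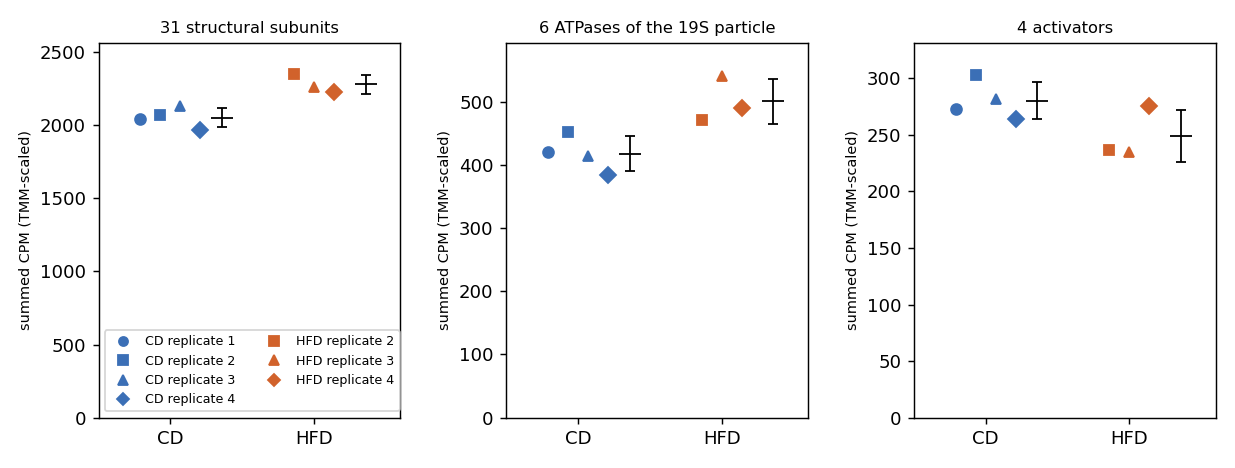
Summed CPM of the 31 structural subunits (left), the 6 ATPases (middle) and the 4 activators (right) in each library, with mean and SD beside each group. The 3 HFD libraries lie above all 4 CD libraries for the structural subunits (2225 to 2350 against 1969 to 2127 CPM) and the ATPases, and overlap with CD for the activators.

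The ATPases form the ring at the base of the 19S cap that pulls the substrate into the core. Psmc5 was the gene of lowest p among the 45 and ranked 71 of all genes. It lies at chr11:106256154-106263120 on the plus strand (GRCm38, as are all gene positions below). Its levels were 71.7, 78.7, 56.1 and 70.9 CPM in CD replicates 1 to 4 and 106, 104 and 93.8 CPM in HFD replicates 2 to 4. All HFD libraries lay above all CD libraries, and HFD replicate 3 was not the extreme one. For Psmc5 the log2 fold change was 0.55 (SE 0.15), with an adjusted p of 0.731 by edgeR's quasi-likelihood test, and 0.51 (SE 0.16) without HFD replicate 3. The unadjusted p stayed under 0.05 in all 19 alternatives. The adjusted p ran from 0.0292 with DESeq2 to 0.994.

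Psmc2, another ATPase of this ring, lies at chr5:21785283-21803787 on the plus strand. It had 87.0, 99.0, 95.6 and 80.6 CPM on CD and 107, 154 and 103 CPM on HFD, without overlap. Its log2 fold change was 0.42 (SE 0.17, adjusted p = 0.854 by edgeR's quasi-likelihood test), and it was 0.20 without HFD replicate 3, the highest library.

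Psmc3 had 63.0, 63.1, 54.1 and 53.7 CPM on CD and 65.7, 70.6 and 72.9 CPM on HFD, again without overlap but with close neighbors (63.1 and 65.7 CPM). Its log2 fold change was 0.25 (SE 0.14, adjusted p = 0.878). Its exons overlap those of Slc39a13 on the other strand, and the use of strand in counting is not given in the sources used here. The remaining ATPases gave log2 fold changes of 0.12 (Psmc4), 0.21 (Psmc6) and −0.14 (Psmc1), with overlapping libraries. Psmc6 was at −0.04 without HFD replicate 3.

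In the α ring, which gates the entry to the core, 6 of 7 genes had a log2 fold change above 0, with a median of 0.15 and none with an unadjusted p under 0.05. Psma5 had 21.5, 13.9, 18.2 and 21.0 CPM on CD and 31.3, 38.6 and 18.9 CPM on HFD. HFD replicates 2 and 3 lay above all CD libraries and HFD replicate 4 among them. Psma5 had a log2 fold change of 0.67 (SE 0.31, adjusted p = 0.857), and 0.41 without HFD replicate 3.

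The direction of Psma3 rested on HFD replicate 3, as it did at smaller values for Psmb7, Psmb10, Psmc6 and Psmd12. It had 16.4, 14.5, 26.4 and 17.7 CPM on CD and 10.7, 48.2 and 9.92 CPM on HFD. HFD replicates 2 and 4 were below all CD libraries and HFD replicate 3 above all of them. This gave a log2 fold change of 0.29 (SE 0.55) with all libraries and −0.89 (SE 0.32, adjusted p = 0.631) without HFD replicate 3. In the fit without that library Psma3 was lower at an unadjusted p under 0.05, as were 3.82% of all genes.

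The other α subunits gave log2 fold changes from −0.30 (Psma1) to 0.27 (Psma4). Without HFD replicate 3, Psma2 was at 0.29, Psma4 at 0.38 and Psma6 at 0.23, and in each the 2 remaining HFD libraries lay above all CD libraries. Psma2 had 70.9, 61.4, 62.0 and 60.8 CPM on CD and 84.4, 54.9 and 73.1 CPM on HFD, so that HFD replicate 3 alone lay below the CD range.

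In the β ring, 6 of 7 genes had a log2 fold change above 0, with a median of 0.24 (0.12 without HFD replicate 3). The 3 catalytic subunits had log2 fold changes from 0.11 to 0.26, none with an unadjusted p under 0.05. Psmb5 had 28.4, 29.2, 21.4 and 26.3 CPM on CD and 34.4, 28.3 and 30.7 CPM on HFD, with a log2 fold change of 0.24 (SE 0.22, adjusted p = 0.917). HFD replicate 3 was the only HFD library among the CD values, and the exons of Psmb5 overlap those of Mir686 on the same strand.

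Psmb6 had 83.7, 75.9, 82.9 and 76.8 CPM on CD and 102, 83.4 and 72.6 CPM on HFD, with HFD libraries on both sides of the CD range. Its log2 fold change was 0.11 (SE 0.15, adjusted p = 0.929). Psmb7 had 53.2, 45.5, 70.2 and 50.2 CPM on CD and 59.8, 86.1 and 50.6 CPM on HFD. Its log2 fold change of 0.26 (SE 0.22, adjusted p = 0.916) was −0.01 without HFD replicate 3, and its exons overlap those of Nek6 on the other strand.

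Psmb4, a structural subunit of the ring, had 111, 114, 112 and 120 CPM on CD and 131, 168 and 114 CPM on HFD. CD libraries of this gene lay close together and HFD replicate 4 lay among them. Here the log2 fold change was 0.27 (SE 0.14, adjusted p = 0.863) and 0.09 without HFD replicate 3. The remaining β subunits gave log2 fold changes of 0.18 (Psmb1), 0.37 (Psmb3) and −0.23 (Psmb2), and only Psmb3 of these had HFD replicates 2 and 4 above all CD libraries.

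The inducible catalytic subunits stayed low on both diets. Psmb10 had 8.30, 13.02, 7.93 and 14.7 CPM on CD and 12.7, 5.85 and 11.4 CPM on HFD (log2 fold change −0.14, SE 0.48, adjusted p = 0.968). Its sign turned to 0.12 without HFD replicate 3. Psmb8 and Psmb9, which the symbol rule leaves out, are given for comparison. Psmb8 had 7.96, 12.5, 7.71 and 12.8 CPM on CD and 10.9, 13.4 and 5.62 CPM on HFD (log2 fold change −0.04, SE 0.48, adjusted p = 0.992). Psmb9 had 4.53, 3.66, 5.20 and 4.68 CPM on CD and 8.49, 7.59 and 4.02 CPM on HFD (log2 fold change 0.57, SE 0.60, adjusted p = 0.919), so that HFD replicates 2 and 3 lay above CD and HFD replicate 4 did not.

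Of the 11 other subunits of the 19S cap, 8 had a log2 fold change above 0, with a median of 0.20 (0.08 without HFD replicate 3) and none with an unadjusted p under 0.05. Psmd1, a large scaffold subunit, had 103, 84.7, 97.8 and 94.1 CPM on CD and 143, 92.0 and 113 CPM on HFD. HFD replicates 2 and 4 lay above all CD libraries and HFD replicate 3 within them. Psmd1 had a log2 fold change of 0.29 (SE 0.16, adjusted p = 0.882), and 0.42 (SE 0.15, unadjusted p under 0.05) without HFD replicate 3, where 2.99% of all genes were higher at an unadjusted p under 0.05. Psmd1 and Psmc5 were the 2 proteasome genes among these.

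Psmd7, the partner of the deubiquitinase Psmd14, had 60.7, 70.2, 64.8 and 60.4 CPM on CD and 68.3, 93.1 and 72.5 CPM on HFD (log2 fold change 0.28, SE 0.15, adjusted p = 0.869). Psmd8, a subunit of the lid, had 59.7, 66.0, 59.0 and 69.8 CPM on CD and 68.3, 101 and 67.8 CPM on HFD (log2 fold change 0.31, SE 0.18, adjusted p = 0.882). In both genes HFD replicate 3 was far above the other libraries, and the log2 fold change without it was 0.12 for Psmd7 and 0.08 for Psmd8. Psmd2, the scaffold that docks the shuttle factors, had the smallest standard error of the 45 genes, with a log2 fold change of 0.20 (SE 0.13) and 0.26 without HFD replicate 3.

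Psmd4, a receptor for ubiquitin chains, gave the lowest value of the structural subunits, with 72.0, 78.3, 85.0 and 66.2 CPM on CD and 64.8, 39.1 and 74.5 CPM on HFD. HFD replicate 3 lay far below all others and the log2 fold change was −0.34 (SE 0.22), or −0.13 without that library. Psmd14, which cuts the ubiquitin chain off the substrate, was at 0.27 (SE 0.36), and its CD libraries held 1 high value of 57.5 CPM in CD replicate 3 against 20.5 to 25.1 CPM in the other CD libraries. Without CD replicate 3, the library of that high value, Psmd14 had a log2 fold change of 0.72. Its unadjusted p was then under 0.05 by edgeR's quasi-likelihood test. In that fit 4 of the 45 genes were higher at this threshold, beside 2.2% of all genes. The remaining subunits gave log2 fold changes of 0.16 (Psmd6), 0.23 (Psmd13, whose exons overlap Sirt3 on the other strand), 0.00 (Psmd3 and Psmd11) and −0.17 (Psmd12).

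The chaperones that assemble the particle held the most extreme values of both signs. Their standard errors ran from 0.35 to 1.14, against a median of 0.20 for the 45 genes. HFD replicate 3 was the highest or the lowest library in 5 of these 7 genes. Of all genes, it was the highest in 23.5% and the lowest in 43.1%. Psmd9 guides the ATPases into the 19S base and lies at chr5:123169413-123250131 on the plus strand. It had 13.3, 22.0, 10.9 and 14.2 CPM on CD and 21.3, 41.3 and 20.2 CPM on HFD. HFD replicate 3 was the highest, and CD replicate 2 lay above both other HFD libraries. For Psmd9 the log2 fold change was 0.87 (SE 0.37, adjusted p = 0.854) and 0.45 without HFD replicate 3. The other chaperones of the 19S base, Psmd5 and Psmd10, were at 0.01 (SE 0.35) and −0.20 (SE 0.54). Psmd5 was at 10.8 CPM in HFD replicate 3 and 18.4 to 27.2 CPM elsewhere.

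The 20S chaperones work as 2 pairs, Psmg1 with Psmg2 and Psmg3 with Psmg4, and in each pair the first partner lay below 0 and the second above it. Psmg2 lies at chr18:67641599-67654162 on the plus strand and had 14.3, 14.6, 17.4 and 18.1 CPM on CD and 20.7, 51.9 and 21.1 CPM on HFD. All HFD libraries lay above CD, HFD replicate 3 far above. This gave a log2 fold change of 0.95 (SE 0.37, adjusted p = 0.824), or 0.36 without HFD replicate 3.

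Its partner Psmg1 (chr16:95979933-95990960, minus strand) had 10.4, 10.4, 15.6 and 7.86 CPM on CD and 7.75, 0 and 7.63 CPM on HFD. All HFD libraries were below all CD libraries, with the smallest gap between 7.86 and 7.75 CPM. A count of 0 in HFD replicate 3 allows up to 0.274 CPM (3 counts, for counting error only), while no other library was below 7.63 CPM. The log2 fold change was −1.11 (SE 1.11, adjusted p = 0.919) with all libraries and −0.55 (SE 0.37) without HFD replicate 3.

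Psmg3 (chr5:139823592-139826885, minus strand) had 8.13, 8.74, 24.1 and 9.63 CPM on CD and 10.9, 0 and 6.94 CPM on HFD. Here HFD replicate 2 lay above 3 of the 4 CD libraries, and the same limit of 0.274 CPM holds for HFD replicate 3. The log2 fold change was −1.08 (SE 1.14, adjusted p = 0.919), or −0.54 without HFD replicate 3. Its partner Psmg4 had 4.69, 4.37, 4.84 and 3.68 CPM on CD and 7.08, 4.76 and 6.10 CPM on HFD, with a log2 fold change of 0.44 (SE 0.60) and HFD replicate 3 as the only HFD library among the CD values. Among 42 proteasome genes whose counts in the 6 remaining libraries all reached 50, these 2 were the ones at 0 in HFD replicate 3, beside 8.55% of all such genes.

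**Figure D5:**
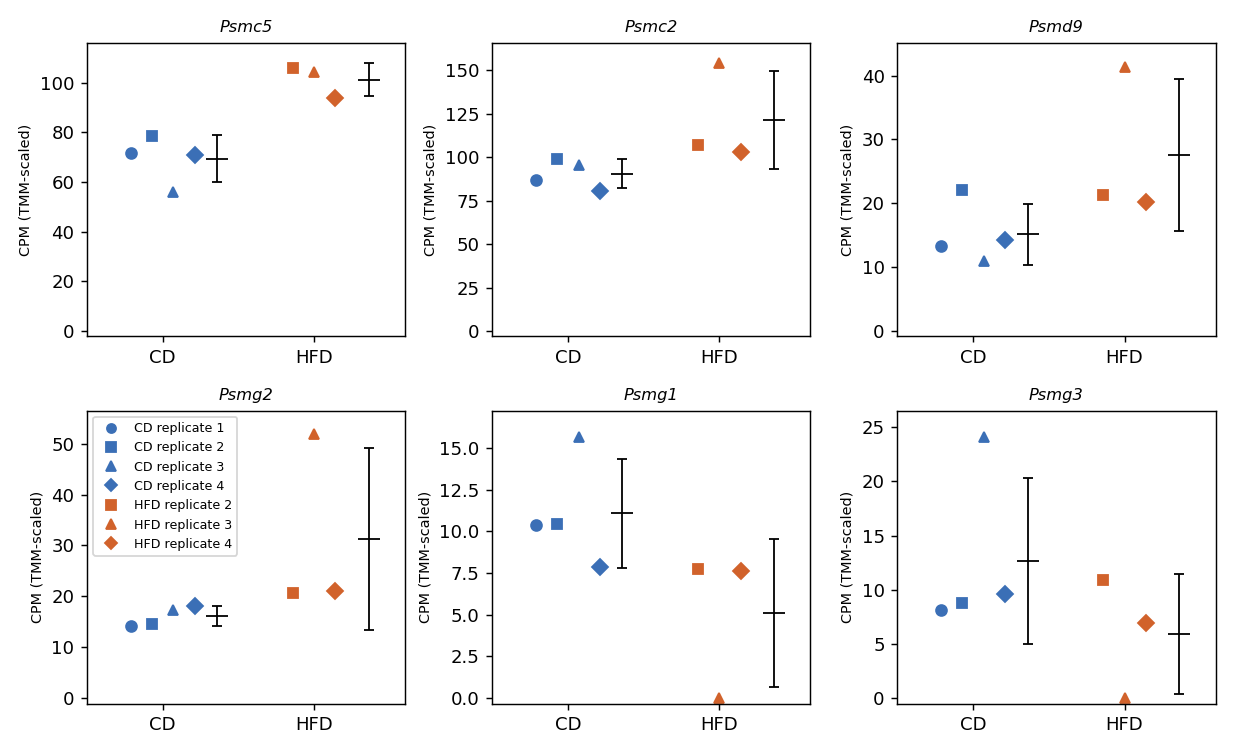
CPM in each library, with mean and SD beside each group, for the 4 genes higher on HFD at an unadjusted p under 0.05 (Psmc5, Psmc2, Psmd9, Psmg2) and the 2 genes at 0 in HFD replicate 3 (Psmg1, Psmg3). Psmc5 lies at 93.8 to 106 CPM on HFD and 56.1 to 78.7 on CD, while HFD replicate 3 is the highest or the lowest point in the other 5 panels.

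The activators open the core in place of the 19S cap. All 4 had a log2 fold change below 0, with a median of −0.18 (−0.17 without HFD replicate 3) and none with an unadjusted p under 0.05. Psme2, the β chain of the interferon-inducible PA28 cap, had 24.7, 43.5, 21.1 and 25.6 CPM on CD and 17.8, 17.3 and 26.01 CPM on HFD (log2 fold change −0.50, SE 0.32). HFD replicates 2 and 3 lay below all CD libraries and HFD replicate 4 within them. Psme1, the α chain, was at −0.23 (SE 0.26), and its exons overlap those of Emc9 on the other strand. The nuclear caps Psme3 and Psme4 were at −0.12 (SE 0.13) and −0.13 (SE 0.15). Without HFD replicate 4, Psme4 was at −0.33 and Psmd4 at −0.56, both with an unadjusted p under 0.05, in a fit where 5.7% of all genes were lower at that threshold.

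The 2 genes that are no subunits were too low for a comparison. Psme2b had 0.587, 2.85, 1.03 and 1.28 CPM on CD and 0.148, 0.0915 and 2.08 CPM on HFD (log2 fold change −0.87, SE 1.43, adjusted p = 0.937). Psmc3ip was at 17.3 CPM in CD replicate 3 and 0.803 to 9.79 CPM elsewhere, with a log2 fold change of −0.06 (SE 1.16), and its exons overlap those of Mlx on the other strand.

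Other genes of the proteasome were read from a list of 20, of which 17 were tested. Of these, 6 had a log2 fold change above 0 and the median was −0.12 (11 of 17 and 0.06 without HFD replicate 3). None had an unadjusted p under 0.05 with all libraries. Akirin2, which carries proteasomes into the nucleus, had 30.2, 33.9, 29.7 and 30.5 CPM on CD and 46.5, 35.04 and 37.2 CPM on HFD, without overlap (log2 fold change 0.35, SE 0.19, adjusted p = 0.870). Pomp, which drives the closing of the core particle, had 35.04, 40.3, 53.6 and 38.5 CPM on CD and 57.0, 58.2 and 45.4 CPM on HFD (log2 fold change 0.35, SE 0.19, adjusted p = 0.880), so that HFD replicate 4 lay among the CD libraries. Shfm1, the small subunit of the lid, had 42.9, 42.8, 43.5 and 44.4 CPM on CD and 41.3, 68.3 and 52.2 CPM on HFD (log2 fold change 0.31, SE 0.19, adjusted p = 0.887), and its log2 fold change was 0.09 without HFD replicate 3. Nfe2l1, the factor that induces proteasome genes when the particle is blocked, was at −0.11 (SE 0.13) and Nfe2l2 at −0.25 (SE 0.29), or at 0.01 and −0.11 without HFD replicate 3.

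Of 20 genes for ubiquitin, its activation and its shuttles, 19 were tested, 7 had a log2 fold change above 0 and the median was −0.04 (11 of 19 and 0.02 without HFD replicate 3). Vcp, the ATPase that pulls ubiquitin-tagged proteins from membranes, had 125, 127, 107 and 113 CPM on CD and 135, 255 and 139 CPM on HFD. The groups did not overlap, and HFD replicate 3 lay far above the rest. Its log2 fold change was 0.58 (SE 0.22, adjusted p = 0.817), or 0.20 without HFD replicate 3. Uba1, the main ubiquitin-activating enzyme, had 302, 244, 282 and 306 CPM on CD and 329, 339 and 308 CPM on HFD, without overlap by a gap from 306 to 308 CPM (log2 fold change 0.20, SE 0.11, adjusted p = 0.880). Nsfl1c, a cofactor of Vcp, had 50.5, 46.1, 46.8 and 52.9 CPM on CD and 56.7, 70.3 and 52.9 CPM on HFD (log2 fold change 0.29, SE 0.16, adjusted p = 0.880), and it was at 0.15 without HFD replicate 3.

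In a list of 12 genes of the inducible proteasome and of peptide loading, which holds Psmb10, Psme1 and Psme2, 2 had a log2 fold change above 0 and the median was −0.36 (−0.34 without HFD replicate 3). Tap2, a chain of the peptide transporter, had 39.7, 42.2, 48.7 and 39.7 CPM on CD and 22.9, 21.5 and 28.3 CPM on HFD. All HFD libraries lay below all CD libraries, with a log2 fold change of −0.81 (SE 0.20, adjusted p = 0.660 by edgeR's quasi-likelihood test, adjusted p = 0.00736 by DESeq2). Tapbp, which bridges the transporter and the MHC class I molecule, was at 136 to 190 CPM on CD and 121 to 134 CPM on HFD (log2 fold change −0.42, SE 0.14, adjusted p = 0.817). Tap2 and Tapbp were named for their values.

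Read against the promoters shown above, the 6 genes with the antioxidant core had a median log2 fold change of 0.16 (4 of 6 above 0), and the 32 without it 0.10 (20 of 32). The 4 genes with the motif of nuclear respiratory factor 1 were at a median of 0.21 (4 of 4 above 0) and the 34 without it at 0.05. The 13 with a CCAAT box were at 0.02 and the 25 without it at 0.16. No test was made of these differences.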

How the data were processed

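RNA-seq of FACS-sorted β-cells from 4 CD and 3 HFD mice was analyzed, with each library from a separate mouse. The authors deposited raw counts of reads, 1 row for each gene symbol, without normalization. The submitters' processing notes name mm10 and edgeR. Which aligner and counter were used, and whether strand was, is not given in the sources used here, so reads of overlapping genes may be shared. Of 24062 rows, 27 held dates in place of symbols (at most 0.155% of a library's counts) and were left out. Of the 24035 genes, 98.5% were matched to GENCODE M21 (GRCm38), from which positions and lengths were taken. Library totals were 10559175 to 22557957 counts, and a count of 0 allows up to 3 counts.

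Counts were tested with edgeR 4.0.16 in R 4.3.3 (filterByExpr, TMM, glmQLFit, glmQLFTest, two-sided, Benjamini-Hochberg over 12354 genes, no covariates). All 7 libraries entered each value unless a library is named as left out. CPM are TMM-scaled. limma 3.58.1 and DESeq2 1.42.0 served as alternatives, with other scalings, filters, offsets for transcript length and GC content, the replicate block and each library left out. The quasi-likelihood test, the likelihood ratio test, DESeq2 and limma-voom were tested on simulated data with the main filter and no covariates. The other scalings, filters, offsets, the replicate block and the fits with a library left out were not. Members, roles and lists were chosen with earlier results of these data known. Full values are given for the 10 genes of lowest p, the catalytic subunits and their inducible partners, the highest and lowest gene per length, genes at 0 in a library, and the 3 genes of lowest p in the lists of other proteasome and of ubiquitin genes. Psma2, Psma3, Psmd2, Psmd4, Psmd14, Psmd5, Psmg4, Psme2, Psme4, Tap2 and Tapbp were named with values beyond this rule after their values were seen.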

Additional observations from a re-analysis of the deposited data

Results flagged for a closer look

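In 4 of the 45 genes, 1 of the 4 CD libraries lay far from the other 3, by a gap above Dixon's critical value. Chance gives such a gap in about 1 of 20 groups if values are normally distributed. The share over all tested genes was not computed, so whether 4 of 45 is unusual is not known. Psmd14 was at 57.5 CPM, Psmg3 at 24.1 CPM and Psmc3ip at 17.3 CPM in CD replicate 3, each above the other CD libraries, and Psma2 was at 70.9 CPM in CD replicate 1. CD replicate 3 was also the highest of all 7 libraries for 9 of the 45 genes, beside 19.7% of all genes. It is the library with the most counts, and the part of depth in these values was not tested.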

How the results depend on the processing

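Of 53 genes followed, 38 kept the sign of their log2 fold change under all alternatives, and 59 of 1003 gene values changed sign. No proteasome gene was called at an adjusted p under 0.05, other than Psmc5 with DESeq2 (log2 fold change 0.56, adjusted p = 0.0292). Over all genes, edgeR's quasi-likelihood test called 0, and 0 to 2 with 1 library left out. That test called 4 with a stricter filter, while the likelihood ratio test called 23 and DESeq2 called 137 with all libraries. With the stricter filter, Psmg1 and Psmg3 were not tested, and 0 genes were lower without overlap. Whether replicate numbers pair the mice is not given in the sources used here, and the correlations between libraries cannot decide it. Same-numbered libraries had correlations of 0.072, 0.017 and 0.056, and libraries of unlike number −0.044 to 0.042. HFD replicate 3 correlated best with CD replicate 1. With the replicate block, alone or with the length or GC offset, 1 gene was higher at an unadjusted p under 0.05 (Psmc5) in place of 4. Of all genes, 134 were higher and 241 lower with the block alone, in place of 353 and 360. These counts were 127 and 207 with block and length, and 158 and 218 with block and GC. With 1 library left out, 1 to 6 proteasome genes were higher (1 without CD replicate 1, 2 without CD replicate 4 or HFD replicate 3) and 0 to 2 lower (2 without HFD replicate 4), beside 1.81% to 3.21% and 2.08% to 5.7% of all genes. Without overlap, 5 to 13 were higher and 1 to 6 lower (7 higher without CD replicate 2 and without HFD replicate 2), beside 5.45% to 9.74% and 6.99% to 13.3% of all genes. Their median ran from 0.09 to 0.16, beside −0.14 to −0.04 for all genes. Sums over roles by scaling and by library were added after seeing the data. These genes turned sign, and the cause was not tested. Psma3 was at −0.26 with limma-voom, −0.14 with the replicate block, −0.14 with block and length and −0.13 with block and GC. Psma7 was at −0.0036 with limma-voom, −0.011 with the replicate block and −0.021 with block and GC. Psmd3 was at 0.0046 with RLE factors, 0.025 with upper-quartile factors, 0.0031 with no filter, 0.0051 with DESeq2, 0.017 with limma-voom, 0.027 with the replicate block, 0.0033 with the length offset, 0.049 with the GC offset, 0.031 with block and length and 0.083 with block and GC. Psmd5 was at −0.011 with limma-voom, −0.12 with the replicate block, −0.013 with the GC offset, −0.13 with block and length and −0.12 with block and GC. Psmd10 was at 0.0057 with block and length. Psmc3ip was at 0.033 with upper-quartile factors, 0.27 with limma-voom, 0.74 with the replicate block, 0.059 with the length offset, 0.78 with block and length and 0.74 with block and GC. Leaving out single libraries turned the sign of Psmb6 (−0.042 to 0.20), Psmb7 (−0.0087 to 0.39), Psmb8 (−0.32 to 0.23), Psmb10 (−0.35 to 0.12), Psma2 (−0.0010 to 0.29), Psma3 (−0.89 to 0.63), Psma6 (−0.056 to 0.23), Psma7 (−0.16 to 0.12), Psmc6 (−0.037 to 0.37), Psmd3 (−0.080 to 0.057), Psmd11 (−0.093 to 0.052), Psmd12 (−0.38 to 0.0086), Psmd5 (−0.25 to 0.31), Psmd10 (−0.41 to 0.42) and Psmc3ip (−0.97 to 1.97).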
